A study of Mus musculus with 34 samples.

Results

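BTB13120 is a drug-like compound of a Maybridge screening library, known here only by its code name, that the study classed as an activator of microexon splicing. It was given to N2A cells, a mouse neuroblastoma line, at 625 nM for 24 h in 0.4% DMSO, and 1 RNA-seq library was made from them. The comparison set that library against the 3 libraries of N2A cells given DMSO alone for 24 h, so that 4 of the 34 libraries of the series were its members, chosen by their treatment labels. The other 30 libraries held 26 other compounds, and 4 of the 28 groups had 2 libraries each. The cells carried no genotype change in the labels, the same line was used throughout, and nothing in the labels says whether the DMSO libraries came from separate cultures, so that the spread between them may be technical. The treated group had no replicate.

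Most exons are joined in every mRNA of a gene, whereas cassette exons are kept in some molecules and skipped in others. Microexons are the shortest of these, here up to 27 nt, and many are kept mainly in neurons, where the splicing regulator SRRM4 promotes their inclusion. The share of a gene's transcripts that keep an exon is its percent spliced in (PSI). Actin assembly feeds back on transcription through SRF, a DNA-binding factor whose MRTF cofactors are held by free actin monomers. SRF binds a short AT-rich element, the CArG box, in promoters of actin, myosin and adhesion genes.

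The libraries held 29960332 spliced junction reads for BTB13120 and 40613524, 35566944 and 20013522 for DMSO. N2A identity was checked on 10 neuroblastoma markers, whose RPKM (reads per kilobase of transcript and per 1000000 reads) summed to 1094 with BTB13120 and to 1076 with DMSO. Markers of other cell types stayed low in both conditions. The 7 fibroblast markers summed to 1.9 and 0.94 RPKM, the 7 immune markers to 0.23 and 0.68, the 7 glial markers to 2.79 and 3.51, the 5 epithelial markers to 0.13 and 0.24 and the 4 endothelial markers to 0.71 and 0.82, with BTB13120 and DMSO respectively. Fewer cells of a type and less RNA per cell cannot be told apart in such bulk samples.

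Microexons described in detail further on, called in the treated library and picked from the named ones after their values were seen, are shown with 15 bases of each neighbouring exon in lower case and the microexon itself in capitals. They were read from GENCODE vM21 transcripts, on the strand of the gene.
Zfyve27, chr19:42185620-42185640: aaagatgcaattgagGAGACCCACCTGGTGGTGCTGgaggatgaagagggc
Clasp2, chr9:113858581-113858604: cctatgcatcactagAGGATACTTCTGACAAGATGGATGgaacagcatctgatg
Slc38a10, chr11:120108467-120108490: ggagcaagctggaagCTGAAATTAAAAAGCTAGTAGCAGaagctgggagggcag
Lass6, chr2:69105743-69105766: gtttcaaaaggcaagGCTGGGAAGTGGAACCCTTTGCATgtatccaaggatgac
Rapgef6, chr11:54651749-54651763: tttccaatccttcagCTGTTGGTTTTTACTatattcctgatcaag
Pacsin2, chr15:83383623-83383628: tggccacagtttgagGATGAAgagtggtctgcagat
Iffo1, chr6:125151795-125151803: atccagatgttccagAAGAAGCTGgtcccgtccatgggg
Coordinates are those of GRCm38. All 7 lie within coding sequence, and each is a multiple of 3 nt long. Lass6 is the event table's name for Cers6, and for Clasp2 only 1 of the 2 flanking introns matched the annotation.

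More microexons were called up than down. Of 598 microexons detected, 28 were included more with BTB13120 (4.68%) and 7 less (1.17%), counting a difference of at least 10 PSI with a posterior probability above 0.95 from the reads. These calls rest on the reads of 1 treated library and carry no replicate check. Their median change was 14.6 PSI among the increased and -14.7 among the decreased. In 27 of the 28 increased microexons, and in all 7 decreased ones, the treated value lay outside the range of the DMSO libraries. Among the 157 microexons with a DMSO mean of 10 to 90 PSI, 119 were higher in the treated library (75.8%), with a median change of 3.30 PSI, while 54.5% of longer cassette exons and 50% of alternative splice sites chosen by the same range were higher.

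The DMSO libraries gave the background of such calls. When each DMSO library was set against the other two, 1.57%, 1.41% and 1.19% of microexons were called increased and 1.42%, 1.41% and 1.36% decreased. Against those same pairs, the BTB13120 library gave 4.96%, 4.72% and 5.03% increased and 1.16%, 1.3% and 1.3% decreased. The increased share thus exceeded every DMSO value, and the decreased share did not.

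**Figure D1:**
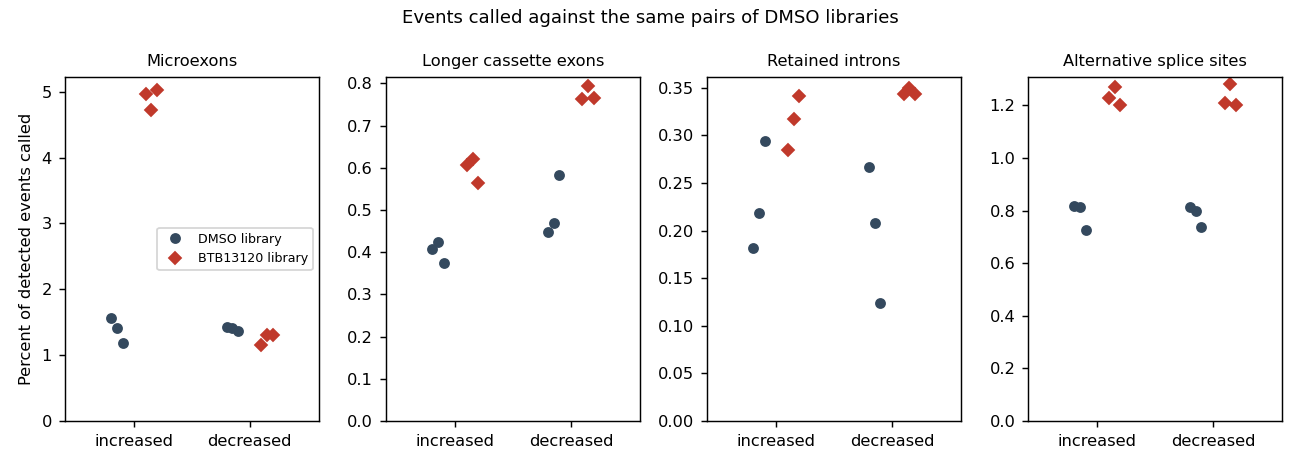
Percent of detected events called increased or decreased (vertical axis, separate scale per panel) for each DMSO library against the other two (circles) and for the BTB13120 library against the same pairs (diamonds), by event class. The increased microexon shares of the treated library, 4.72% to 5.03%, lie above the 1.19% to 1.57% of the DMSO libraries.

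The named gains were the largest calls whose treated value lay outside the DMSO range, so that the gap from DMSO is part of how they were chosen. The 21-nt microexon of Zfyve27, which encodes protrudin, a promoter of neurite outgrowth, was at 70.8 PSI with BTB13120 and at 46.7, 37.5 and 47.4 PSI with DMSO. A 24-nt microexon of Clasp2, a microtubule plus-end protein, was at 63.9 PSI against 43.4, 27.9 and 40.4. For Zfyve27 the treated value ranked 3 of 33 libraries, and for Clasp2 it ranked 7 of 34.
The 24-nt microexon of Slc38a10, an amino acid transporter family member, was at 66.4 PSI against 37.1, 40.6 and 47.0. That of Lass6, a ceramide synthase, was at 55.8 PSI against 37.5, 37.0 and 24.6. The 15-nt microexon of Rapgef6, an exchange factor for Rap GTPases, was at 40.8 PSI against 18.4, 24.4 and 21.2. For Slc38a10 and Lass6 the treated value ranked second of 34 libraries, and for Rapgef6 it ranked 4 of 34.
The 6-nt microexon of Pacsin2, an F-BAR protein of endocytosis, had the most reads of the named microexons, 1321 with BTB13120 and 2081, 1864 and 965 with DMSO. It stood at 52.2 PSI against 37.5, 34.6 and 40.5. Its treated value was mid-range over the series, at rank 16 of 34. The other named gains were in Kcnq5, Snx14, Sypl, Mink1, Mast2 and Gramd1a, with differences from 15 PSI in Gramd1a to 22.9 PSI in Kcnq5.

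Among the decreased microexons, the 9-nt exon of Iffo1, an intermediate filament family gene, stood out. It was at 18.3 PSI with BTB13120, on 42 reads, and at 54.3, 48.0 and 66.8 PSI with DMSO, on 100, 93 and 40 reads. That treated value was the lowest of 33 libraries. The 23-nt exon of Phf21a, a subunit of a histone demethylase complex, was at 44.2 PSI against 58.4, 60.1 and 60.4. The 12-nt exon of Incenp, a chromosomal passenger protein, was at 41.5 PSI against 55.1, 54.6 and 48.8, on 827 treated reads. Dgkq, Inpp4a, Fryl and Lrrc57 made up the rest, with falls of 11.5 to 14.7 PSI.

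**Figure D2:**
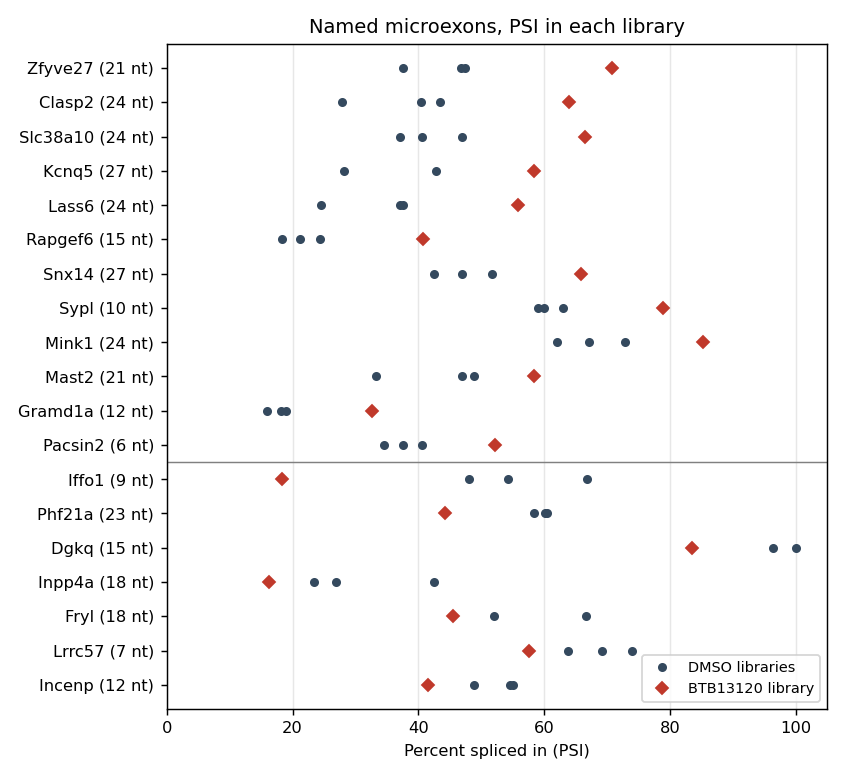
PSI (horizontal axis) of the 19 named microexons in the BTB13120 library (diamonds) and the 3 DMSO libraries (circles), with increased exons above the line and decreased ones under it. The exons were chosen to lie outside the DMSO range, and the largest difference among them is that of Iffo1, 18.3 against 48.0 to 66.8 PSI.

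In genes whose exons the study followed by other assays, some exons passed the 10 PSI criterion. The unaltered 21-nt microexon of Mef2d, a transcription factor, was at 90.2 PSI with BTB13120 and at 89.5, 88.7 and 88.7 PSI with DMSO. That of Mast2, a microtubule-associated kinase, was called increased at 58.4 PSI against 47.0, 48.9 and 33.3. Mef2d was close to full inclusion in all 4 libraries. The screen's reporters carried altered copies of the Mef2d exon, whose baseline the paper places closer to mid-range. Ergic3, a cargo receptor, was at 45.5 PSI against 33.9, 39.8 and 42.0, and Trappc9, a tethering complex subunit, at 38.1 PSI against 29.7, 31.6 and 33.2. Zmynd8, a chromatin reader, was at 54.1 PSI against 52.2, 53.4 and 49.2. Lphn2, an adhesion receptor, was at 15.2 PSI against 17, 15.1 and 18.5, within the DMSO range. The study also assayed microexons of Clasp2, Snx14, Pus7 and L1cam, with other compounds, and these were looked up after the other values were seen. That of Snx14, a sorting nexin, was called increased at 65.9 PSI against 51.7, 46.9 and 42.4, as was the 24-nt microexon of Clasp2 given above. Another 24-nt microexon of Clasp2 was at 86.5 PSI against 82.9, 80.9 and 75.2. A 3-nt microexon of that gene was at 95.9 PSI against 94.9, 96.7 and 96.6, and neither was called. The 18-nt microexon of Pus7, a pseudouridine synthase, was at 19 PSI against 14.9, 11.7 and 10.2, and was not called. L1cam, a neuronal adhesion molecule, held microexons of 12 nt, at 49.6 PSI against 42.5, 41.4 and 38.1, and of 15 nt, at 82.6 against 80.3, 86.8 and 87.8, and neither was called. For Asph, Zdhhc20 and Mgrn1 the paper's text gives no length of the assayed exon, so that the exons given here may be others. The longer exons of Asph, a hydroxylase gene, included 1 of 48 nt at 43.5 PSI against 32.3, 20.9 and 25.7, which was called increased. No other exon of Asph was called, among them 1 of 45 nt at 67.7 PSI against 70.8, 56.5 and 57.5. The 36-nt exon of Zdhhc20, a palmitoyltransferase, was at 45 PSI against 29, 41.4 and 31.3 and was called increased. The 45-nt exon of Mgrn1, a ubiquitin ligase, was at 14.5 PSI against 25.6, 16.8 and 17.1.

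A test that used the spread between libraries found less. With limma on the logit of PSI over all 34 libraries, with Benjamini-Hochberg adjustment, none of 525 microexons passed an adjusted p of 0.05 with a difference of 10 PSI against DMSO, while 56 had an unadjusted p under 0.05. Over all 52351 exons, 12 passed (0.0229%). Against the other 26 compounds, 13 exons passed (0.0248%), of which 4 were included more and 9 less. The lone treated library was assumed to vary as the replicated groups did.

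Among longer cassette exons, more were called down than up. Of 56917 detected, 281 were included more (0.494%) and 402 less (0.706%). The DMSO libraries against each other gave 0.407%, 0.425% and 0.375% increased and 0.449%, 0.47% and 0.583% decreased, and BTB13120 against the same pairs 0.606%, 0.621% and 0.564% increased and 0.763%, 0.794% and 0.766% decreased. Both shares of the treated library were above those of every DMSO library. The median DMSO level was 68.1 PSI for the increased exons and 90.9 PSI for the decreased ones. Exons of a length divisible by 3 made up 53% of the increased, 46% of the decreased and 39.6% of all those detected.

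Among the named gains with a value in all 4 libraries, the largest was in Hnrnph1, which encodes an RNA-binding splicing regulator. Its 127-nt exon was at 91.4 PSI with BTB13120 on 67 reads, and at 50.3, 33.3 and 43.5 PSI with DMSO on 118, 122 and 66 reads. The treated value was the highest of 25 libraries. Expression of Hnrnph1 itself was close in all libraries, at 1693 spliced junction reads per 1000000 (CPM) against 1808, 1736 and 1839. Pop5, a subunit of RNase P, held the most reads among the gains, with its 143-nt exon at 70.9 PSI against 49.6, 38.0 and 40.6. Prdm15, Slc26a4, Slc38a6, Hexdc, 2010111I01Rik, Cacna1c, Rpain and Tatdn1 completed the named gains.
Among the falls, the 121-nt exon of Zfp949, a zinc finger gene, was at 51.9 PSI against 95.2, 86.7 and 83.3. The 151-nt exon of Sfmbt1, a Polycomb-related gene, was at 54.8 PSI against 94.2, 88.7 and 75, and the 164-nt exon of Rfx1, a transcription factor, at 62.6 PSI against 86.5, 95.1 and 96.6. All 3 were the lowest values of the libraries in which the exon was measured. Outside the naming rule, 2 exons of Rbfox1, a neuronal splicing regulator, were picked from the called events of listed genes after their values were seen. The 53-nt exon of Rbfox1 was at 6.4 PSI against 30.9, 39.8 and 23.9, and its 240-nt exon at 89.0 PSI against 71.3, 80.6 and 55.8. Tpcn2, BC024978, Igsf9, Ankrd42, Mzf1, Usp44 and Usp35 were the other named falls.

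Introns and alternative splice sites were called in both directions. Of 86560 introns, 262 were retained more (0.303%) and 239 less (0.276%). In the DMSO libraries against each other, the shares were 0.182%, 0.219% and 0.294% for more retention and 0.267%, 0.208% and 0.124% for less. BTB13120 against the same pairs gave 0.285%, 0.317% and 0.341% for more and 0.344%, 0.35% and 0.344% for less. The shares for more retention overlapped those of the DMSO libraries, and the shares for less lay above them. Among the 1509 introns with a DMSO mean of 10 to 90 PSI, 461 were higher with BTB13120 (30.6%), and their median change was -3.81 PSI. That range was chosen on the DMSO values themselves. An intron of Rad52, a recombination gene, was at 100 PSI against 54.8, 59.0 and 75.6, on 37 treated reads. An intron of Mif4gd, a histone mRNA translation factor, was at 5.4 PSI against 24.2, 36.8 and 41.9. Lime1, Agbl5, Ankzf1, Prrt2 and 2010007H12Rik were also retained more, and Lrrc51, Ecm1, Lrfn4, Rnf215 and Zfp187 less.
Of 52218 alternative splice sites, 577 were used more (1.1%) and 572 less (1.1%), and the counts mirror each other because the sites of an event share its reads. DMSO libraries against each other gave 0.728% to 0.816% increased, and BTB13120 against the same pairs 1.2% to 1.27%. The 3-nt site of Plekhg2 was used at 94.1 PSI against 58.9, 47.2 and 44.8, on 34 treated reads. The other named sites were in Plcb3, Ankrd39 and Ankrd16.

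Several of the genes named for a large rise belonged to the actin cytoskeleton. Naming needed a call by spliced junction reads as well as by RPKM. Histone genes, which rose by RPKM, are described further on. By RPKM, where each condition has 1 merged value, 284 of 9738 genes over 5 RPKM were more than 2-fold higher (2.92%) and 327 lower (3.36%), with no test. Centred on the median log2 ratio of -0.10, the RPKM counts were 357 higher and 222 lower. By spliced junction reads per gene, which exist for every library and are given as CPM, 374 of 10689 genes were more than 2-fold higher at an adjusted p under 0.05 in limma with Benjamini-Hochberg adjustment (3.5%), and 282 were lower (2.64%). With each library's trend over transcript length removed, an alternative chosen after seeing the data, 413 were higher and 164 lower. With the adjusted p alone, 16.2% of genes were higher and 18.4% lower. Of the RPKM-higher genes that had both measures, 99 of 152 were also called higher by junction reads, and of the RPKM-lower ones 95 of 163 were called lower. None was called in opposite directions.
Most members of the list of actin cytoskeleton and SRF target genes rose. This list was chosen with earlier results of these data known, so that its counts are no independent evidence of direction. By junction reads, 23 of its 24 tested members were higher at an adjusted p under 0.05 and none was lower, and 16 were called higher. Their median log2 difference was 1.22, where that of all genes tested was -0.03. Their RPKM summed to 17882 with BTB13120 and 9175 with DMSO, and 19 of the 24 members over 5 RPKM were at their highest of all 28 conditions, as were 971 of all 9738 genes over 5 RPKM (9.97%).

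Smooth muscle genes had the largest log2 differences on the list. Cnn1, smooth muscle calponin, had the largest fitted value, 5.86, but started from very few reads, at 4.01 CPM with BTB13120 and at 0.123, 0.0843 and 0 with DMSO, and an offset of 2 reads brought it to 4.92. Acta2, smooth muscle alpha-actin, was at 98.6 CPM with BTB13120 and at 2.56, 3.46 and 3.2 with DMSO. Its log2 difference was 5.01 ± 0.33 (SE; limma adjusted p = 1.5e-06), and its RPKM was 35.5 against 1.15. The treated level was the highest of the 34 libraries.
Myl9, a regulatory light chain of myosin, was at 36.6 against 2.63, 2.28 and 1.9 CPM, a log2 difference of 4.01 ± 0.23 (limma adjusted p = 5.56e-07). Tgfb1i1, the focal adhesion adaptor Hic-5, was at 324 against 53.4, 54.9 and 53.3. Cnn2, a calponin that binds actin filaments, was at 441 against 101, 98.3 and 97.8. In all 3 genes the DMSO libraries lay close together and far from the treated one.
Srf itself rose, at 244 against 94.1, 98.2 and 85.3 CPM, a log2 difference of 1.40 ± 0.12 (limma adjusted p = 9.33e-06). Zyx, a focal adhesion protein, was at 475 against 169, 173 and 146. Flna, an actin crosslinker, was at 4147 against 1598, 1623 and 1573, and Myh9, the heavy chain of nonmuscle myosin, at 2537 against 1306, 1258 and 1139. Each was the highest of the 34 libraries.
Vcl, which links integrins to actin, was at 712 against 343, 317 and 329. The tropomyosins Tpm1, Tpm2 and Tpm4, which coat actin filaments, were called higher, and Tpm1 stood at 281 against 108, 88.4 and 93.2. Actb, cytoplasmic beta-actin, was at 6727 against 4025, 3714 and 3616, a log2 difference of 0.83 ± 0.07 (limma adjusted p = 6.27e-06) that fell short of 2-fold. Actg1, gamma-actin, had no junction value here and stood at 8804 RPKM against 4039. The actin genes share near-identical sequence, so that reads may be split among them, and Actg2, at 476 against 194, 189 and 185, is the least certain. The exception among tested members was Anln, a cytokinesis scaffold, at 436 against 359, 343 and 368 (limma adjusted p = 0.104).

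**Figure D3:**
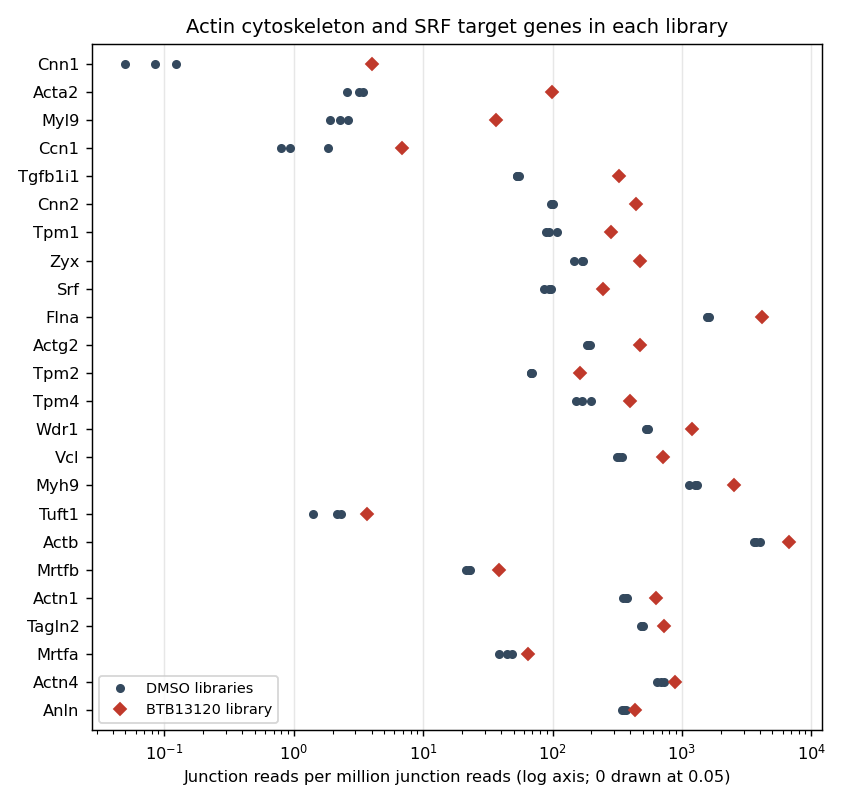
CPM (horizontal log axis) of the 24 tested actin cytoskeleton and SRF target genes in the BTB13120 library (diamonds) and the 3 DMSO libraries (circles), ordered by log2 difference. The diamond lies to the right of the DMSO circles in the genes named in the text, such as Acta2 at 98.6 against 2.56 to 3.46.

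Related lists were put together after these values were seen, and their counts are no independent evidence either. For scale, 16.2% of all genes tested were higher and 18.4% lower at an adjusted p under 0.05. Of all genes tested, 3.5% were called higher, and the median log2 difference was -0.03. Of 27 tested genes of focal adhesions and stress fibres, 20 were higher and 1 lower at an adjusted p under 0.05, and 12 were called higher, with a median log2 difference of 0.75. Lpp, a zyxin family member, was at 42.3 against 3.91, 4.7 and 3.65 CPM. Lima1, an actin bundler, was at 92.3 against 19.3, 20.7 and 20.4, and Csrp1, a LIM protein of actin filaments, at 538 against 121, 124 and 143. Csrp2 was the 1 that fell, at 14.1 against 27.3, 25.9 and 31.3.
Of 12 muscle-type contractile genes tested, 8 were higher and 1 lower, and their median was 1.97. Several of them started from very few reads, such as Actc1, cardiac actin, at 5.94 against 0.0492, 0.141 and 0.0999. Tnnt2, cardiac troponin T, was at 6.81 against 1.5, 0.759 and 1.45. Mylpf, a fast-muscle myosin light chain, was the member that fell, at 1.97 against 5.61, 4.72 and 6.1.
Of 22 genes of actin monomer and filament dynamics, 11 were higher, 3 lower and none past 2-fold, with a median of 0.25. Pfn1, profilin, was at 587 against 319, 285 and 282, and Dstn, which severs filaments, at 735 against 359, 362 and 391. Of 9 SRF partner factors, 7 were higher and none lower, with a median of 0.69. Mef2d, whose microexon differed by 1.2 PSI, was at 152 against 72.4, 71 and 71.7 at the level of the gene, and Wwtr1, the Hippo coactivator TAZ, at 21.1 against 5.32, 6.19 and 5.75.

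The CArG box was then looked for in promoters. It was searched by its name's consensus on both strands in RefSeq windows of GRCm38.p6 running from 250 bases before to 50 after each gene start. It was found in 535 of 32851 promoters (1.63%), in 134 of 8463 tested genes with a window (1.58%), in 24 of 293 genes called higher (8.19%) and in 3 of 222 called lower (1.35%). These shares are a description of letters in a window, with no test. For 4 genes that rose, 1 box each is shown in capitals, with 25 bases on either side, all upstream of the start and on the strand of the gene. The Srf stretch holds another box in its lower-case part, 62 to 53 bases before the start.
Srf, chr17:46556210-46556269: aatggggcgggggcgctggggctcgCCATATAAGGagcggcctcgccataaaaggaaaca
Cnn2, chr10:79988519-79988578: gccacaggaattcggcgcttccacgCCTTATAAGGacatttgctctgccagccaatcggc
Myl9, chr2:156775278-156775337: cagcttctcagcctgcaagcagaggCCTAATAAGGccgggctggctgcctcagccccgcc
Lima1, chr15:99820162-99820221: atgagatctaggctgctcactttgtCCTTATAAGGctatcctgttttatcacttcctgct
Of the actin and SRF list, 7 of 25 genes with a window held a box (28%). That list was made in part of known SRF targets, so that a high share could follow from its choice alone. Acta2, Actb, Cnn1, Flna, Myh9 and Zyx were not among those 7.

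Other named rises lay outside the actin lists. Timp3, an inhibitor of matrix metalloproteases, was at 16.4 against 1.26, 0.815 and 1.1 CPM, and Nes, the intermediate filament nestin, at 14.9 against 1.87, 2.25 and 2.3. Sdc3, a heparan sulfate proteoglycan, was at 45.5 against 9.75, 8.88 and 8.09. Apol10b, an apolipoprotein L gene, was at 68 against 8.94, 6.19 and 6.65, and Mrvi1 at 38.2 against 8.13, 9.78 and 6.95. These genes were chosen for a large RPKM change that junction reads also called. Over all genes tested, the treated library lay above every DMSO library in 38.5% and below every one in 43.8%.

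Splicing regulators moved less than the actin list. Of 41 tested, 14 were higher and 5 lower at an adjusted p under 0.05, 2 were called higher and the median log2 difference was 0.20. Of all genes tested, 16.2% were higher and 18.4% lower by that limit and 3.5% were called higher, with a median of -0.03. Srrm4, the neuronal activator of microexons, was at 88.6 against 43.3, 40.8 and 40.6 CPM, a log2 difference of 1.09 ± 0.20 (limma adjusted p = 0.00195). Its RPKM was 17 against 10.4, a smaller ratio than by junction reads. With the trend over transcript length removed from each library, its log2 difference was 0.90, under 2-fold.
Srrm3, which acts on an overlapping set of microexons, was at 20.5 against 19.5, 14.7 and 14.9 (limma adjusted p = 0.21). Celf5 was the other regulator called higher, at 8.71 against 5.29, 3.8 and 2.75. Rbm38, an RNA-binding protein that represses microexons, was higher at 84 against 47.9, 49.1 and 41.8, a log2 difference of 0.86 ± 0.13 (limma adjusted p = 0.000735) that became 1.07 with the length trend removed. The repressor Ptbp1 was at 185 against 185, 197 and 183, and Hnrnpc, a nuclear RNA-binding protein, was lower at 112 against 189, 182 and 179.

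**Figure D4:**
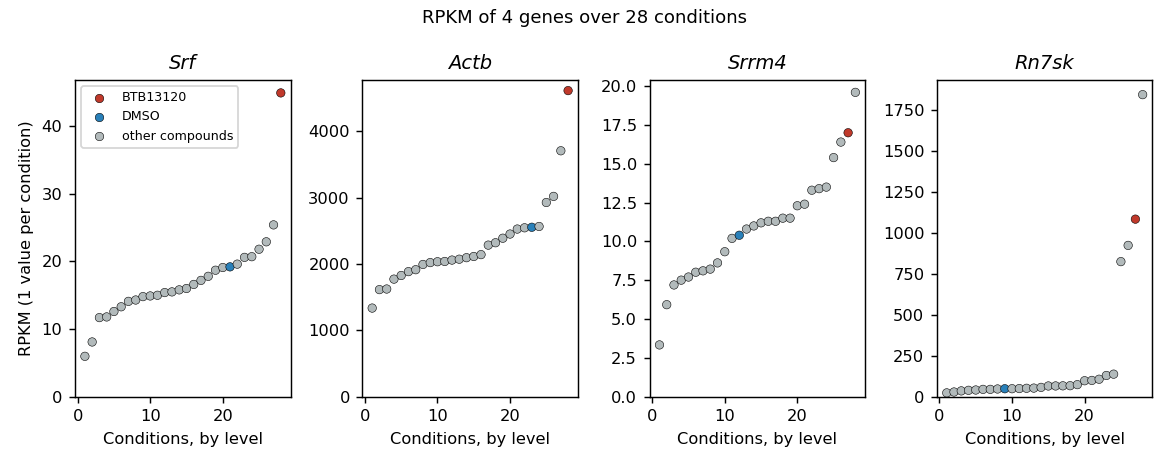
RPKM (vertical axis, 1 merged value per condition) of Srf, Actb, Srrm4 and Rn7sk over the 28 conditions, each panel ordered by level, with BTB13120 in red, DMSO in blue and the other compounds in grey. BTB13120 is the highest condition for Srf, at 44.9 against 19.2 with DMSO, and for Actb, and it ranks second for Srrm4 and Rn7sk.

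The remaining lists changed in part. Of 18 immediate early and MAPK feedback genes tested, 8 were higher and none lower, and the median was 0.55. Phlda1 was at 14.9 against 4.24, 4.05 and 4.45, Dusp1, a MAP kinase phosphatase, at 13.5 against 5.47, 5.48 and 4.4, and Spred2, a Ras pathway inhibitor, at 113 against 55.8, 61.7 and 50.1. Fos and Egr1 did not pass, at 6.14 against 4.06, 4.67 and 3.75 and at 12.2 against 9.7, 10.7 and 9.54.
Of 15 JAK-STAT targets, 6 were higher, none past 2-fold, with a median of 0.36. Of 26 neuronal and neuroblastoma lineage genes, 8 were higher and 3 lower, and Phox2a, Gata2 and Mycn, lineage transcription factors, were called higher. Gata2 was at 243 against 113, 114 and 100.
On the cell cycle lists more members fell than rose. Of 29 G1/S and replication genes, 16 were lower and 1 higher, with a median of -0.35, and of 29 G2 and mitosis genes 11 were lower and 2 higher, with a median of -0.20. Cdk1, the mitotic kinase, was at 212 against 470, 481 and 527, and Gins2, a replication helicase subunit, at 61.3 against 130, 138 and 124. Mki67, a proliferation marker, was higher at 361 against 202, 194 and 195.
Stress and metabolic lists each held higher and lower members at an adjusted p under 0.05. Over all genes tested, 16.2% were higher and 18.4% lower by that limit. Higher and lower members numbered 4 and 2 of 18 for p53 targets, 6 and 3 of 26 for the integrated stress response, 7 and 3 of 19 for the unfolded protein response, 5 and 3 of 26 for sterol and fatty acid synthesis, and 2 and 3 of 15 for heat shock and oxidative stress. Their medians ran from -0.04 to 0.09.

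Among the genes that fell, Capn6, a calpain family gene, was at 84.8 against 233, 223 and 243 CPM, a log2 difference of -1.46 ± 0.09 (limma adjusted p = 1.5e-06). Ddt, a tautomerase, was at 6.41 against 19.7, 20.5 and 20.2, and Dbi, an acyl-CoA binding protein, at 64.6 against 138, 130 and 147. Cox7b2, Selenoh, 3110009E18Rik, Spa17, Anapc13, Lsm7, Snhg3 and Mrps21 were the other named falls.
Of 32 cytosolic ribosomal protein genes, a list added after the values were seen, 27 were lower and none higher, and 14 were called lower, with a median of -0.96. Of all genes tested, 18.4% were lower at an adjusted p under 0.05 and 2.64% were called lower. Rplp0 was at 127 against 423, 394 and 375, and Rps15 at 41.8 against 159, 176 and 143. Many ribosomal protein genes have near-identical pseudogenes, so that their counts are uncertain.
Transcript length moved with these falls. The median log2 difference from DMSO was -0.27 for transcripts up to 700 nt and 0.30 for those over 6000 nt, while the DMSO libraries stayed within -0.02 and 0.01 of their mean. The ratio of junction reads in the first 25% of a gene's introns to those in the last 25%, over genes with at least 8 introns, was 1.90 with BTB13120 and 1.51, 1.5 and 1.57 with DMSO, and ran from 1.44 to 1.93 with the other compounds. With the length trend removed from each library, the ribosomal median was -0.72 with 7 called lower, and the actin and SRF median was 1.30 with 17 called higher. The part of length in these changes was not tested further.

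**Figure D5:**
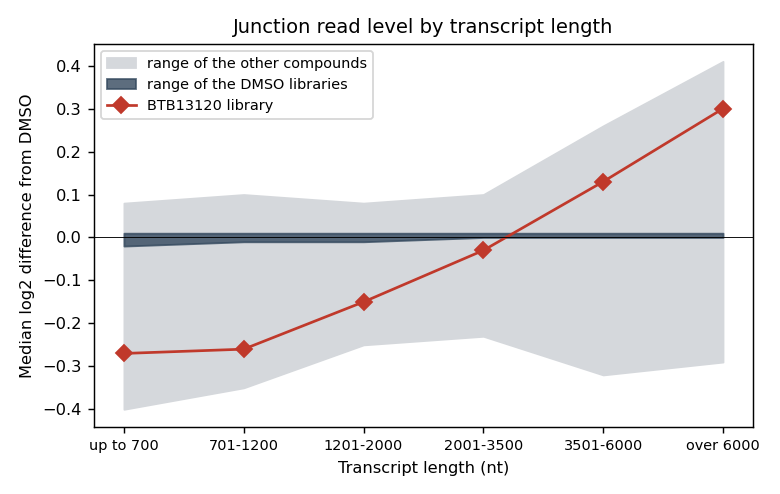
Median log2 difference of CPM from the DMSO mean (vertical axis) by transcript length class (horizontal axis, nt) for the BTB13120 library, with the range of the DMSO libraries and of the other compounds shaded. The treated line runs from -0.27 for the shortest to 0.30 for the longest class, within the range of the other compounds.

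Among RNAs that lack a poly(A) tail, histone genes were higher. Of 26 replication-dependent histone genes over 5 RPKM, 22 were more than 2-fold higher and none lower, and their RPKM summed to 457 against 124. Of 168 small non-coding RNA genes, 52 were higher and 41 lower, with a median log2 ratio of 0.04 and sums of 104322 and 23790 RPKM. Rn7sk, the 7SK RNA that restrains the elongation factor P-TEFb, was at 1083 RPKM with BTB13120 and 49.1 with DMSO, and 3 other compounds were above 500. Those 3 were histone deacetylase inhibitors, CI-994 at 1842, BRD6688 at 923 and Vorinostat at 824. Another such inhibitor, BRD4884, was at 45.2. These sums enter the total behind every RPKM, and the part of RNA selection in them was not tested.

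Against the other 26 compounds, 187 genes were called higher (1.75%) and 431 lower (4.03%) by limma with Benjamini-Hochberg adjustment. The DMSO means do not enter this comparison, but the DMSO libraries share in its estimate of the spread, and the treated library is the same one. The treated library was the highest of the 34 in 96 of the 374 genes called higher against DMSO. It was the lowest of the 34 in 130 of the 282 genes called lower against DMSO. Over all genes tested, it was the highest in 423 (3.96%) and the lowest in 557 (5.21%). Acta2 was at 98.6 CPM where the other compounds ran from 1.24 to 19.2, and Tgfb1i1 and Lpp were the highest of all libraries as well.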

How the data were processed

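N2A cells were treated as the labels state, and polyA RNA was sequenced as TruSeq v2 libraries. Per the labels, the authors used build mm9, Salmon 0.10.2 and edgeR. The deposited event table holds percent spliced in per library from vast-tools, with reads per event, and the deposited expression table holds 1 RPKM value per condition, replicates merged. The authors' columns of fold changes, p-values and significance were not used, nor was the second splicing table, which holds their pooled values.

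The members and gene lists were chosen with earlier results of these data known. Exon events needed adequate coverage and read balance, and introns at least 15 reads, in the treated library and at least 2 DMSO libraries. Calls needed 10 PSI and a posterior probability above 0.95 from 2000 beta draws per library. RPKM ratios used a pseudocount of 0.5. Junction reads per gene (mean of at least 20) were summed per library, scaled to reads per 1000000 (CPM) with an offset of 0.5 reads, and fitted with limma 3.58.1 (R 4.3.3) over 34 libraries in 28 groups with Benjamini-Hochberg adjustment. The lone treated library was assumed to vary like the replicated groups, and p-values measure the spread between these libraries only. Named events were the 12 microexons, 10 cassette exons, 6 introns and 4 splice sites with the largest called change each way, with at least 20 reads per library and outside the DMSO range, plus exons the study assayed, of which 1 is not reported here. Named genes were the 12 largest RPKM changes each way that junction reads also called, plus list members. The junction and splicing scripts were tested on simulated data. Junction reads ranged from 20013522 to 40613524 over the 4 libraries, which sets the precision of PSI for exons with few reads.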

Additional observations from a re-analysis of the deposited data

How the results depend on the processing

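No paired analysis was possible because BTB13120 has 1 library and shares no series of replicate numbers with DMSO. With a limit of 15 PSI, microexons fell to 13 increased and 2 decreased, cassette exons to 91 and 137, introns to 129 and 100, and splice sites to 262 and 253, and exons lower than in the other compounds to 0. Restricted to microexons of up to 15 nt, 12 were increased and 4 decreased. With limma on logit PSI over all 34 libraries, 0 microexons were increased and 0 decreased (56 had an unadjusted p under 0.05), and 1 cassette exon was increased and 11 decreased. Leaving out 1 DMSO library in turn gave 29 to 31 increased and 7 to 8 decreased microexons, 327 to 358 and 438 to 458 cassette exons, 250 to 300 and 302 to 308 introns, 635 to 672 and 632 to 675 splice sites, and 350 to 394 genes higher and 259 to 300 lower by junction reads. Above 1 RPKM instead of 5, 544 genes were higher and 572 lower by RPKM. In protein-coding genes alone 176 were higher and 212 lower, and centring RPKM ratios on their median gave 357 and 222. With the trend over transcript length removed, 164 genes were lower by junction reads. Those 2 alternatives, coding genes alone and the length trend, were chosen after seeing the data. The log2 difference of Ptbp1, -0.03, turned to 0.01 with median-of-ratios scaling, -0.05 to 0.01 with 1 DMSO library left out, above 0 without DMSO replicate 2, and 0.12 with the length trend removed. The cause of these shifts was not tested. With 1 treated library no call could be checked in a replicate.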

Other observations

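Some events and genes outside the naming rule were picked after their values were seen. A site 4 nt into a 3′ splice site event of Gpx4, the glutathione peroxidase that reduces lipid peroxides, was used at 38.5 PSI with BTB13120 on 136 reads, and at 1.0, 0.0 and 0.7 PSI with DMSO on 192, 188 and 143 reads. The site 7 nt into the same event was at 61.5 PSI against 97.9, 98.9 and 97.2, and both were the most extreme of 32 libraries. A 107-nt exon of Txnrd1, thioredoxin reductase, was at 53.3 PSI against 38.8, 30.2 and 31.9, on 2684 treated reads. Peg10, an imprinted gene derived from a retrotransposon, was at 124 CPM against 22.3, 15.7 and 18.1. Runx2, a transcription factor of bone, was at 3.04 CPM against 0.419, 0.562 and 0.55. In each of these the treated value lay outside the DMSO libraries.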
